A study of Mus musculus with 8 samples.

Results

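The Cdk inhibitor genes of the Cip/Kip and INK4 families were examined together with Mdm2 and the p53 target genes Gadd45a, Ccng1 and Sesn1 in the dorsal dentate gyrus of Cav3.1 knockout mice and their WT counterparts. A set of 10 genes was sought by symbol, and 9 of them had a probe among the 19321 gene symbols on the array. Trp53, which encodes p53 itself, had no probe under that symbol in the annotation used and was not analysed here. Where a gene had several probes the brightest over all 8 arrays was to be kept, but each of the 9 genes had 1 probe. The set was chosen by gene family and by what is known of p53, but it was prompted by the measured rise of Cdkn1a on these same arrays, so the group difference of that gene is described without a test and supports nothing. The other 8 genes were tested.

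Total RNA came from dorsal dentate gyrus of male C57BL/6J mice aged 8 to 12 weeks, of genotype WT or Cav3.1 KO, with 4 arrays per genotype and no treatment named in the labels. Cav3.1 is the pore of a T-type calcium channel and is encoded by Cacna1g. The labels used here do not describe how the allele was made or in which cells it is lost. They speak of slices and leave it unsaid whether each array represents 1 animal, so a p-value here reflects array-to-array spread, part of which may be technical. All values are from bulk tissue, in which fewer cells of a type and less RNA per cell cannot be told apart.

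Cip/Kip proteins bind complexes of cyclins with their kinases, whereas INK4 proteins bind Cdk4 and Cdk6 and keep D-type cyclins away. The transcription factor p53 activates Cdkn1a, whose product p21 holds cells before S phase, and it also activates Mdm2, whose product marks p53 for degradation. The dentate gyrus contains quiescent stem cells and a small dividing population beside a large majority of granule neurons that have left the cell cycle. Cdkn1a is also known to respond to signals that do not pass through p53, glucocorticoids and growth factors among them.

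The probe of Cacna1g ranged from 6.43 to 6.61 on the normalised log2 scale in WT and from 6.39 to 6.55 in Cav3.1 KO, with overlap (difference -0.08, SE 0.0508, limma adjusted p 0.816), and its place relative to the deleted part is not stated, so it checks no genotype. The share of probes detected, that is, above the 95th percentile of an array's blank spots, was 85.4% to 93.0%. Of 8 granule neuron markers tested 6 were lower in Cav3.1 KO, and the median difference of the 8 was -0.12. Only C1ql2 passed, with a fall of 0.57 on the normalised log2 scale (SE 0.0509, limma adjusted p 0.0065). Above the blank level, C1ql2 measured between 301 and 449 units on WT arrays and between 176 and 247 on knockout arrays. Calb1 was bright, at 641 to 1216 over all 8 arrays, and its difference went the other way, at 0.34 on the normalised log2 scale. Every knockout array (9.78 or more) exceeded every WT array (9.75 or less), as for 2.42% of all probes in this direction. Calb1 did not pass (SE 0.127, limma adjusted p 0.523). Its blank-subtracted intensities overlapped between genotypes. For 3 of the 8, C1ql2, Lct and Plk5, every knockout array lay below every WT array, as for 2.53% of all probes in this direction. Lct differed by -0.25 (SE 0.0616, limma adjusted p 0.231) and Plk5 by -0.19 (SE 0.0328, limma adjusted p 0.0820). After blank subtraction Plk5 passed (-0.91, limma adjusted p 0.0297), at a mean of 19.8 units above the blank level in WT. Prox1 stood only 8.79 to 14.2 units above the blank level and Dock10 averaged 6.77 in WT. The file headers divided the arrays by the ratio between scan gains, with slopes of gain 3 on gain 1 of 0.244 to 0.247 on WT replicates 1, 2 and 4 and Cav3.1 KO replicate 1 (the first set) and of 0.235 to 0.236 on WT replicate 3 and Cav3.1 KO replicates 2, 3 and 4 (the second set). This division fell unevenly across the genotypes, so values within each of these scan gain sets are given for the genes on which results turn. Over all 21150 probes tested, 42 (0.199%) rose and 19 (0.0898%) fell in Cav3.1 KO at a limma adjusted p below 0.05. Scaling to the 75th percentile of each array in place of quantile normalisation gave 62 rises and 48 falls. The median difference over all probes was -0.00078 on the normalised log2 scale, and differences throughout are Cav3.1 KO minus WT.

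Cdkn1a, which encodes p21, was dim in WT and brighter in Cav3.1 KO. On the normalised log2 scale it stood at 6.15, 6.08, 6.05 and 6.04 in WT replicates 1 to 4, with a mean of 6.08 ± 0.0476 (SD, n = 4). In Cav3.1 KO replicates 1 to 4 it stood at 6.81, 7.08, 6.88 and 6.97, with a mean of 6.94 ± 0.117 (SD, n = 4). Every knockout array was higher than every WT array, and the lowest knockout value belonged to replicate 1. Cdkn1a was thus 0.86 (SE 0.0579) or 1.81-fold higher in Cav3.1 KO. Its intensity above the mean blank spot ranged from 11.7 to 17.8 scanner units in WT, and in Cav3.1 KO from 49.4 to 85.7. The normalised scale carries an offset that compresses dim genes, and after blank subtraction followed by quantile normalisation the difference was 2.23, or 4.70-fold. It was 2.17 in the deposited value table of the series. The difference was 0.71 within the first scan gain set, which held 3 WT arrays and 1 Cav3.1 KO array, and 0.95 within the second, which held 1 and 3.

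**Figure D1:**
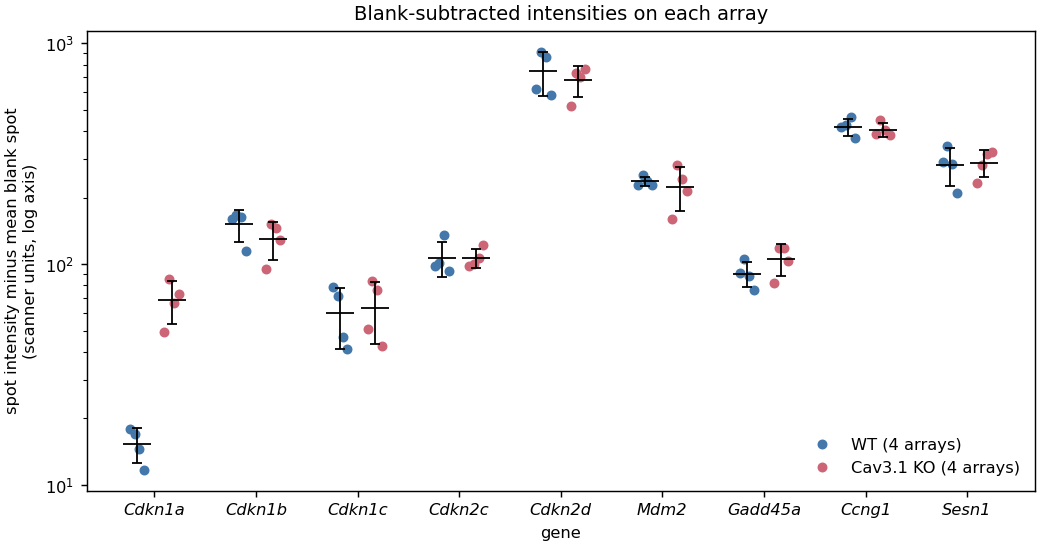
Spot intensity minus the mean blank spot of the same array (scanner units, log axis) for the 9 genes, with 1 point per array, 4 per genotype; black marks are means and bars are SD. Cdkn1a lies between 11.7 and 17.8 in WT and between 49.4 and 85.7 in Cav3.1 KO, while the points of the other 8 genes overlap between genotypes; levels of different probes are not comparable.

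The promoter windows of Cdkn1a are printed because p53 is the best known activator of this gene and its binding element can be read in one of them. The reference holds a window for each of its transcription starts, from 250 bases before to 50 after the start (RefSeq, GRCm38.p6, plus strand). Capitals mark the match to the consensus p53 response element, made of 2 half-sites of 10 bases set end to end, with at most 2 mismatches and the central bases of each half-site intact. That element reads alike on both strands.
Cdkn1a, upstream start, chr17:29090729-29091028: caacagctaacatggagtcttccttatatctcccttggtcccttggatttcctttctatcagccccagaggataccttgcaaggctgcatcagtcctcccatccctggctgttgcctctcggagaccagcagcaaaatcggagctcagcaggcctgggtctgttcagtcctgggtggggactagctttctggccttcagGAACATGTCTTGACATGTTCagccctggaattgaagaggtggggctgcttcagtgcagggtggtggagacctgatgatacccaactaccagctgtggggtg
Cdkn1a, downstream start, chr17:29093519-29093818: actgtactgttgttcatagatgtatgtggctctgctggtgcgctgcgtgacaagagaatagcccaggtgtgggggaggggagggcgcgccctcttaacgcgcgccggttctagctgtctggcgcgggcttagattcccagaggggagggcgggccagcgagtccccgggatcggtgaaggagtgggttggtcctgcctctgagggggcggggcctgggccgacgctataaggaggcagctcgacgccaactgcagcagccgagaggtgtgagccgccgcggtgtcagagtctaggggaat
Gtse1, chr15:85859696-85859995: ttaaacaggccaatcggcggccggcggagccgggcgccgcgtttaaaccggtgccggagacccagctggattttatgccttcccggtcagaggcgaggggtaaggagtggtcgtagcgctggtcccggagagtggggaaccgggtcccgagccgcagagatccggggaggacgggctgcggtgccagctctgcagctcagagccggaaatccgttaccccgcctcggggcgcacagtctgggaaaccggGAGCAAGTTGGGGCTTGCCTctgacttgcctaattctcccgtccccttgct
The Cdkn1a match had 1 mismatch and was centred 41 bases before the upstream start and 2831 bases before the downstream start. A match with at most 2 mismatches was found in 52 of 32851 windows (0.158%), and one with at most 1 mismatch in 18 (0.0548%). Windows were given for 9 of the 10 genes, Trp53 among them and Cdkn1c not, and only 1 of their 12 windows, the upstream one of Cdkn1a, held a match. Among 25 genes of a wider list of p53 targets, the sole match was that of Gtse1, a regulator of p53 in G2 chosen for mention because of it, which differed by 0.06 (SE 0.0286, limma adjusted p 0.659). A match in letters is a description and not a measured binding site. Elements outside these windows, or with bases between the half-sites, could not be found, so a missing match shows no lack of an element.

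The other Cip/Kip genes did not pass the test. Cdkn1b encodes p27, the inhibitor that keeps many neurons and progenitors out of the cycle. On the normalised log2 scale it stood at 7.73, 7.64, 7.65 and 7.51 in WT replicates 1 to 4 and at 7.39, 7.63, 7.60 and 7.49 in Cav3.1 KO. The groups overlapped, with 2 knockout arrays below all WT arrays and none above. The difference was -0.11 (SE 0.0635, 95% interval -0.253 to 0.0389, exact permutation p 0.143, limma adjusted p 0.800).

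Cdkn1c encodes p57, known for holding hippocampal stem cells in quiescence. Its normalised log2 values were 7.04, 6.85, 6.58 and 6.64 in WT replicates 1 to 4 and 6.84, 7.07, 6.99 and 6.57 in Cav3.1 KO. The spread within each genotype was far wider than the difference of 0.09 (SE 0.132, limma adjusted p 0.976), and both groups held low and high arrays. Without Cav3.1 KO replicates 2 and 3 the difference was -0.07. The 4 highest Cdkn1c arrays, WT replicates 1 and 2 and Cav3.1 KO replicates 2 and 3, were also the highest for markers of choroid plexus, whose mean log2 level over 7 measured genes was 8.42, 8.71, 8.53 and 8.16 on them and 6.35 to 7.94 on the other arrays. Markers of thalamus and habenula were likewise higher on them, at 7.28, 7.24, 7.73 and 7.66 over 7 tested genes, against 6.70 to 6.84 elsewhere. The part of such tissue in the Cdkn1c values was not tested.

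Neither INK4 gene of the set passed the test. Cdkn2c encodes p18 and stood at 7.24, 7.14, 7.46 and 7.31 in WT and at 7.42, 7.23, 7.28 and 7.43 in Cav3.1 KO on the normalised log2 scale, a difference of 0.06 (SE 0.0753, limma adjusted p 0.971). Cdkn2d encodes p19INK4d, an inhibitor retained by mature neurons. It stood at 9.37, 9.79, 9.68 and 9.45 in WT and at 9.45, 9.57, 9.51 and 9.66 in Cav3.1 KO, and every knockout value lay inside the WT range. The difference was -0.03 (SE 0.0948, 95% interval -0.247 to 0.189, limma adjusted p 0.995). The full list of 7 Cip/Kip and INK4 genes adds Cdkn2a and Cdkn2b. With Cdkn1a left out of the count, none passed an adjusted p of 0.05 by limma, where 0.288% of all probes did in either direction. Only 1, Cdkn2b, had an unadjusted p below 0.05, against 8.1% of all probes. Cdkn2b, the p15 gene, differed by -0.15 (SE 0.0638, limma adjusted p 0.601). Cdkn2a, which encodes p16 and the p53-stabilising protein p19Arf, gave only 1.80 to 5.18 units above the blank level on the 8 arrays and differed by -0.0073 (SE 0.0263, limma adjusted p 0.995).

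**Figure D2:**
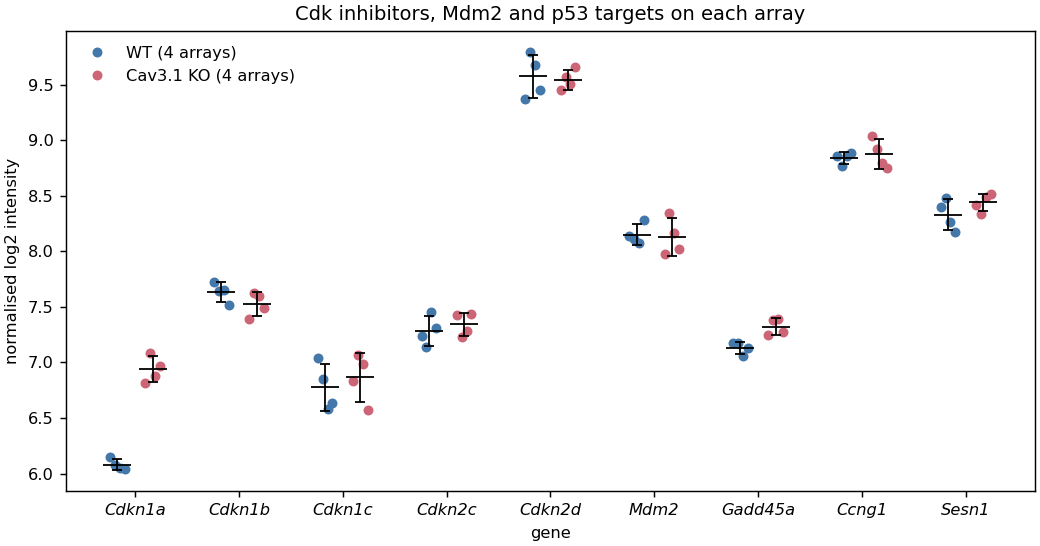
Normalised log2 intensity (offset scale) of the 9 genes on each of 8 arrays, with 1 point per array, 4 per genotype; black marks are means and bars are SD. The genotypes separate for Cdkn1a (6.04 to 6.15 against 6.81 to 7.08) and, narrowly, for Gadd45a (7.06 to 7.18 against 7.25 to 7.39), and overlap for the other 7 genes.

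Mdm2, the ubiquitin ligase gene that p53 activates and that restrains p53, did not pass the test. Its normalised log2 values were 8.14, 8.11, 8.07 and 8.28 in WT and 7.97, 8.35, 8.17 and 8.02 in Cav3.1 KO, so the knockout arrays lay on both sides of the WT range. The difference was -0.02 (SE 0.0851, 95% interval -0.217 to 0.174) at a limma adjusted p of 0.996. It was -0.20 within the first scan gain set and 0.11 within the second. After blank subtraction the difference was -0.03, where that of Cdkn1a was 2.23.

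Gadd45a encodes a stress sensor that binds PCNA and Cdk1 complexes. Its normalised log2 values were 7.17, 7.18, 7.06 and 7.13 in WT and 7.25, 7.38, 7.39 and 7.27 in Cav3.1 KO. The ranges did not overlap. This was so for 2.42% of all probes in this direction, 2.53% in the other and 4.95% in either. The difference was 0.19 (SE 0.0442, 95% interval 0.0877 to 0.291), and it missed the threshold at a limma adjusted p of 0.206. By exact permutation p was 0.0286, which no result of 4 against 4 arrays can undercut. Before quantile normalisation the blank-subtracted intensities overlapped, with WT between 76.7 and 105 and Cav3.1 KO between 82.0 and 119, and the lowest knockout value was again on replicate 1. The difference was 0.09 within the first scan gain set, 0.30 within the second and 0.12 without Cav3.1 KO replicates 2 and 3.

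The remaining p53 targets of the set, Ccng1 and Sesn1, did not pass the test. Ccng1, the cyclin G1 gene and a standard reporter of p53 activity, stood at 8.85, 8.77, 8.86 and 8.88 in WT and at 9.04, 8.92, 8.80 and 8.75 in Cav3.1 KO on the normalised log2 scale. The knockout arrays fell on both sides of the WT range, and the difference was 0.04 (SE 0.0641, limma adjusted p 0.982). It was 0.20 within the first scan gain set and -0.035 within the second. Sesn1 encodes a sestrin, which dampens mTORC1 signalling. It stood at 8.40, 8.48, 8.27 and 8.17 in WT and at 8.42, 8.34, 8.49 and 8.52 in Cav3.1 KO. The ranges overlapped, and the difference was 0.11 (SE 0.0712, 95% interval -0.0546 to 0.273, exact permutation p 0.200, limma adjusted p 0.837).

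Of the 8 genes tested, then, 5 were higher and 3 lower in Cav3.1 KO, and by limma 0 passed at an adjusted p below 0.05, where 0.288% of all probes did in either direction. At an unadjusted p below 0.05 there was 1, Gadd45a, against 8.1% of all probes. Their median difference was 0.05, beside -0.00078 over all probes. The 95% intervals of the 8 genes reached no lower than -0.253 and no higher than 0.392, whereas Cdkn1a stood at 0.86. A difference between Cdkn1a and each of these genes was not tested, since the choice of Cdkn1a fixed its size. The mean log2 level of Mdm2, Gadd45a, Ccng1 and Sesn1 together was 8.14, 8.13, 8.06 and 8.12 in WT and 8.17, 8.25, 8.21 and 8.14 in Cav3.1 KO. The lowest knockout array, replicate 4, lay just under the highest WT array, so the ranges overlapped, and the difference in the means was 0.08. It was 0.037 within the first scan gain set, 0.14 within the second and 0.040 without Cav3.1 KO replicates 2 and 3.

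The wider list of p53 target genes held 32 genes, of which 29 had a probe and all 29 were tested; Cdkn1a was not among them and Mdm2, Gadd45a, Ccng1 and Sesn1 were. By limma 2 rose and 0 fell, against 0.199% and 0.0898% of all probes. A further 27 did not pass. In the direction of the difference, 19 were higher and 10 lower, where 49.3% of all probes were higher, and the median difference was 0.04. At an unadjusted p below 0.05 there were 6 higher and 1 lower, where 8.1% of all probes reached that in either direction. The lower one was Aen (-0.14, SE 0.0453, limma adjusted p 0.420). The groups did not overlap for 4 higher genes and 1 lower gene of the list, against 2.42% and 2.53% of all probes. The list mean was 7.21 to 7.24 on WT arrays and 7.28 to 7.30 on Cav3.1 KO arrays. Marker lists of other cell types also differed in direction between the genotypes. For CA pyramidal neurons 6 of 6 markers had lower knockout means (median difference -0.16, with Bok past the threshold), with list means of 7.85 to 8.08 on WT arrays and 7.57 to 7.86 on knockout arrays. Those of oligodendrocytes were lower for 7 of 7 (median -0.18, means 10.17 to 10.47 and 9.88 to 10.47), those of microglia for 7 of 7 (median -0.08, means 7.78 to 7.96 and 7.71 to 7.83) and those of endothelial cells for 6 of 8 (median -0.05, with Cldn5 past the threshold, means 7.86 to 8.03 and 7.73 to 7.90). Markers of astrocytes were higher for 7 of 8 (median 0.01, with Gjb6 past the threshold, means 9.09 to 9.17 and 9.15 to 9.22) and those of thalamus and habenula for 6 of 7 (median 0.23, means 6.70 to 7.28 and 6.79 to 7.73). Choroid plexus markers were lower for 6 of 7 (median -0.28, means 7.18 to 8.71 and 6.35 to 8.53). Ependyma markers were lower for 3 of 4 (median -0.09, means 6.69 to 7.08 and 6.21 to 7.35). Bok, Cldn5 and Gjb6 were named after their values were seen. The part of such cells in the p53 target values was not tested.

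Those that rose were Btg2 and Trp53inp1. Btg2 encodes an antiproliferative protein and is also an immediate early gene. It stood at 6.39, 6.38, 6.46 and 6.38 in WT and at 6.69, 6.81, 6.92 and 6.81 in Cav3.1 KO. The groups did not overlap, as for 2.42% of all probes in this direction. The difference was 0.41 (SE 0.0476, limma adjusted p 0.0184), or 0.89 after blank subtraction. Trp53inp1 encodes a stress-induced nuclear protein that takes part in p53-dependent death and in autophagy. It stood at 6.93, 6.80, 6.69 and 6.74 in WT and at 7.18, 7.15, 7.15 and 7.18 in Cav3.1 KO, again without overlap, with a difference of 0.38 (SE 0.0487, limma adjusted p 0.0274), or 0.66 after blank subtraction, where it missed the threshold (limma adjusted p 0.0738). Both calls could be lost with 1 array left out, while the differences stayed at 0.37 to 0.45 for Btg2 and 0.34 to 0.42 for Trp53inp1. That of Btg2 was lost without any 1 of WT replicates 1 to 4 or Cav3.1 KO replicates 2 and 4 (adjusted p 0.0535 to 0.0852), and that of Trp53inp1 without any 1 array other than WT replicate 1 (0.0650 to 0.107). With the scan gain set as a block Btg2 passed (0.0475) and Trp53inp1 did not (0.0616). Without Cav3.1 KO replicates 2 and 3 together the adjusted p-values were 0.128 and 0.190. The directions held in each of these settings, with differences of 0.30 and 0.36 within the first gain set and 0.40 and 0.48 within the second. Pmaip1, which encodes the BH3-only death protein Noxa, came next with a difference of 0.24 (SE 0.0367, limma adjusted p 0.0609) and stood 7.48 to 13.4 units above the blank level in WT against 18.5 to 22.8 in Cav3.1 KO.

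**Figure D3:**
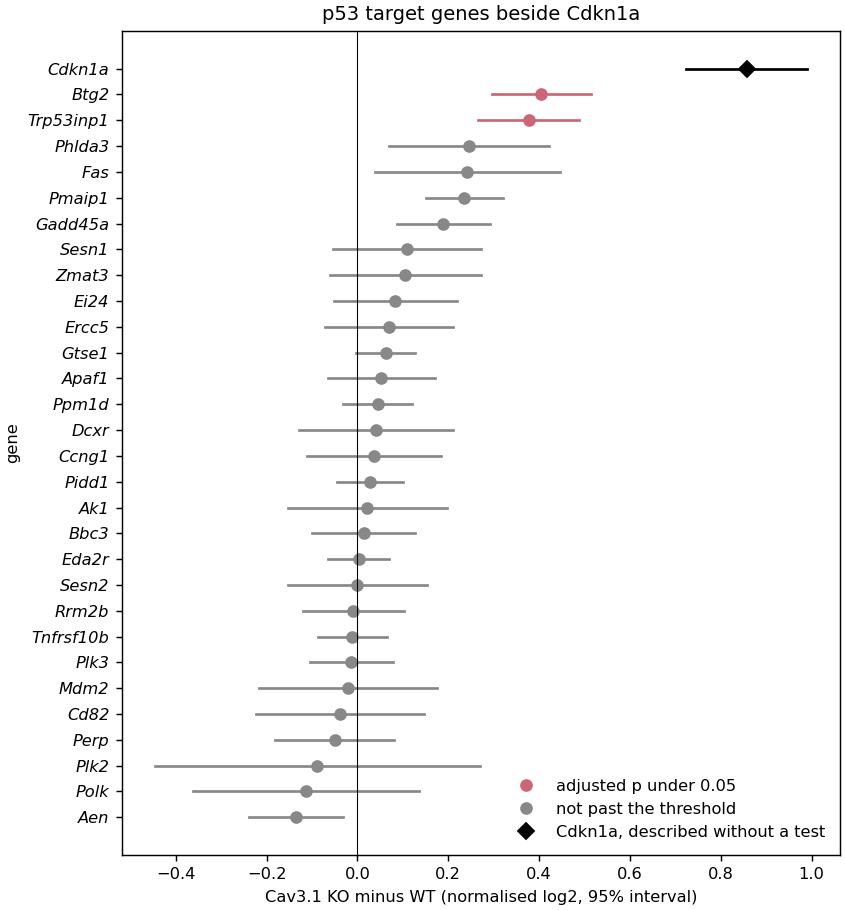
Difference between Cav3.1 KO and WT (normalised log2, 4 arrays each) with its 95% interval for the 29 measured genes of the wider p53 target list, ordered by size, and for Cdkn1a as a diamond without a test. Btg2 at 0.41 and Trp53inp1 at 0.38 pass the threshold, the intervals of Mdm2, Ccng1 and Sesn1 span 0, and Cdkn1a stands at 0.86.

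Genes around p53 and the cell cycle machinery were also examined. Among 16 p53 family members and regulators, 13 had a probe, 12 were tested and 0 passed by limma, with 0 also at an unadjusted p below 0.05. Over all probes these shares were 0.288% and 8.1% in either direction. The 3 with the smallest p were Ppp1r13l, an inhibitor of p53 (0.08, SE 0.0413, adjusted p 0.746), the p53 relative Trp63 (-0.03, SE 0.0237, adjusted p 0.870) and the p53 inhibitor Mdm4 (0.04, SE 0.0319, adjusted p 0.908), of which the last 2 averaged only 8.35 and 3.76 units above the blank level in WT. Of 8 genes of the Gadd45, sestrin and cyclin G families 6 were higher and 0 passed, where 49.3% of all probes were higher. At an unadjusted p below 0.05 there were 2, namely Gadd45a and Gadd45g, against 8.1% of all probes. Gadd45g stood at 9.35, 8.94, 9.21 and 9.02 in WT and at 9.72, 10.2, 9.84 and 9.82 in Cav3.1 KO. The groups did not overlap, as for 2.42% of all probes in this direction, and the difference of 0.76 (SE 0.119) had a limma adjusted p of 0.0609.

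Targets of the inhibitors themselves, listed with E2F factors and Pcna, did not pass the test. Of cyclins, Cdks, pocket proteins, E2F factors and Pcna, 17 genes were tested. Among these 17, 7 were higher, 10 lower and 0 passed by limma, with 2 lower at an unadjusted p below 0.05. Over all probes 49.3% were higher, 0.0898% fell and 8.1% had an unadjusted p below 0.05 in either direction. The 2 genes were Cdk4 (-0.19, SE 0.0672, adjusted p 0.459) and the cyclin D1 gene Ccnd1 (-0.15, SE 0.0527, adjusted p 0.478), and Cdk6 followed at 0.07 (SE 0.0343, adjusted p 0.723). Proliferation genes that the DREAM complex represses downstream of p21 were lower for 13 of 17 tested, with a median difference of -0.02, and 0 passed. The replication helicase gene Mcm5, the one gene of them with an unadjusted p below 0.05, differed by -0.08 (SE 0.0291, adjusted p 0.511), the topoisomerase gene Top2a by -0.05 (SE 0.0313, adjusted p 0.805) and the mitotic kinase gene Plk1 by -0.05 (SE 0.0314, adjusted p 0.854). Mcm5, Top2a and Plk1 stood only 16.5, 11.5 and 6.59 units above the blank level in WT. The mean over the 17 proliferation genes overlapped between genotypes, at 6.28 to 6.32 on WT arrays and 6.26 to 6.33 on Cav3.1 KO arrays. Markers of neural stem and progenitor cells, of which 6 were measured, had list means between 6.91 and 7.01 in WT and between 6.94 and 7.04 in Cav3.1 KO, with 0 past the threshold.

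**Figure D4:**
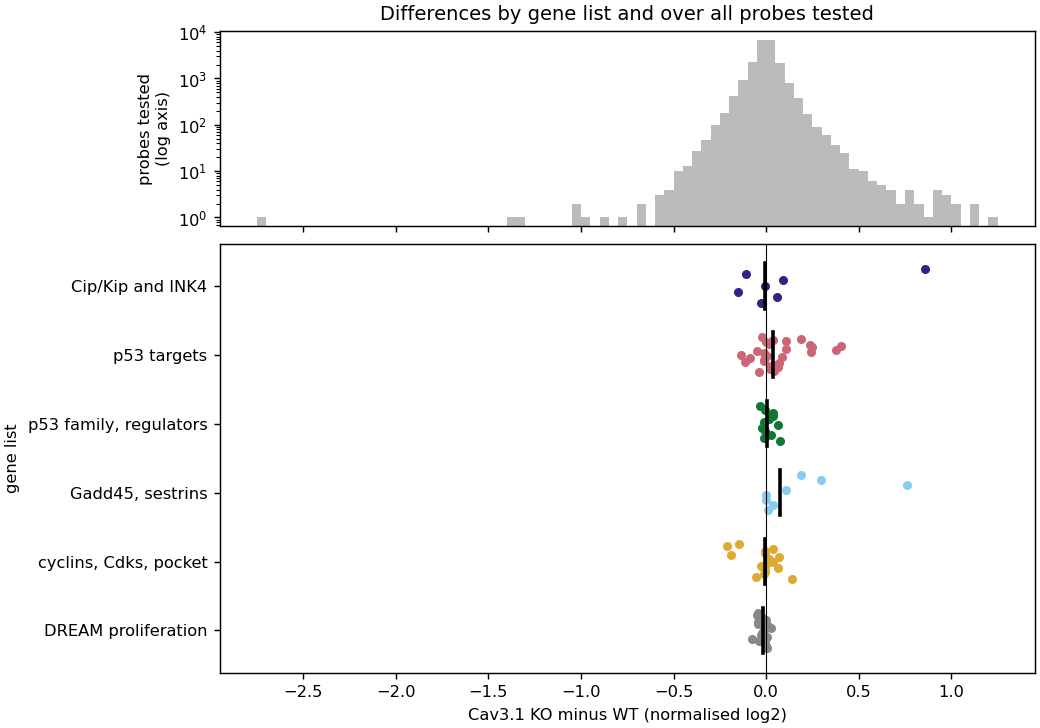
Top: number of probes (log axis) by difference between Cav3.1 KO and WT (normalised log2) over all 21150 probes tested. Bottom: each tested gene of 6 lists as a point, with the list median as a black bar; Cdkn1a at 0.86 and Gadd45g at 0.76 stand far to the right of their lists, whose medians are -0.0073 and 0.07.

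By profile over the 8 arrays, no other gene of the set was among the 5 nearest to Cdkn1a. Likeness was the root mean square difference of normalised log2 values centred on each gene's own mean. The 5 nearest were Ccn2 (0.0824), which encodes connective tissue growth factor, the glucose transporter gene Slc2a1 (0.125), Gadd45g (0.126), Fam177a2 (0.131) and Nfkbia (0.131), the gene for an inhibitor of NF-kappa-B. Their differences between the genotypes were 0.82, 0.91, 0.76, 0.71 and 0.91. Within the set, Gadd45a was nearest, at 0.341, with 251 probes nearer to Cdkn1a. Sesn1 followed at 0.394, while Mdm2 stood at 0.449. A measure of this kind favours genes with a rise of like size, which is what chose Cdkn1a.

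The differences of the set were then set side by side under 25 settings. Several of these cannot change a difference, only its test. They are the probe filters, the blocks by file number and replicate, the eBayes options and the mean over a gene's probes. Cdkn1a, chosen for its rise, was higher in Cav3.1 KO in all 25 settings, from 0.71 within the first scan gain set to 2.23 after blank subtraction. Gadd45a and Sesn1 were also higher in all, from 0.09 to 0.30 and from 0.06 to 0.18, and Cdkn1b was lower in all, from -0.23 to -0.06. None of these 3 passed an adjusted p of 0.05 by limma in any setting. Cdkn1c, Cdkn2c, Cdkn2d, Mdm2 and Ccng1 changed sign in 1 to 4 settings each.

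**Figure D5:**
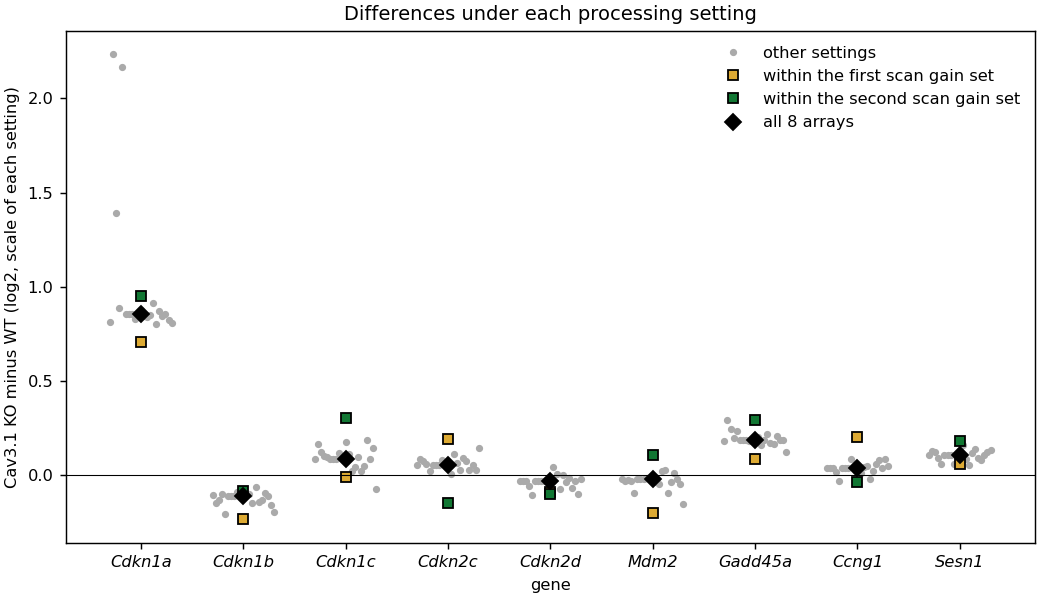
Difference between Cav3.1 KO and WT (log2, on the scale of each setting) for the 9 genes, with all 8 arrays (diamond), within either scan gain set of 4 arrays (squares) and under the other settings (grey points). Cdkn1a stays at 0.71 or above in every setting, and the points near 2.2 are from blank subtraction and the deposited value table; those of Mdm2 lie on both sides of 0.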

How the data were processed

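Single-colour arrays of 8 samples were analysed, 4 WT and 4 Cav3.1 KO, grouped by the sample titles. Per the file headers, the authors deposited for each spot a median intensity at 635 nm, not normalised, with flags at 3 scan gains; the merging of gains is not stated. The deposited value table of the series holds a linear intensity whose array medians all round to 25.0; its normalisation is not stated, and the table served as an alternative.

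The background column of the files followed spot brightness (log correlation 0.994 to 0.996) and was not subtracted. Intensities were corrected with normexp (offset 50, all 27456 spots), taken to log2, averaged per probe and quantile normalised. Of 23473 probes, those above the 95th percentile of 2736 blank spots on at least 4 arrays and with no bad flag were tested, 21150 in all. The genotypes were tested by lmFit and eBayes of limma 3.58.1 under R 4.3.3 (Benjamini-Hochberg over all probes), and single genes also with exact two-sided permutation tests over 70 arrangements. Blank-subtracted log2 values were floored at 1 unit before quantile normalisation. Array number limits precision. The fit was tested on simulated data. Probe names are from the platform annotation and promoters from RefSeq.

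The genes, lists and tests were chosen with earlier results of these data known. Genes named were the set and, of each list, the genes past the threshold and the 3 with the smallest p. The 5 nearest to Cdkn1a in profile were also named. Gtse1, Cdkn2a, Aen and the tissue markers were chosen otherwise, some after their values were seen. The replicate numbers of the labels did not pair the arrays. Alternatives are given at the end.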

Additional observations from a re-analysis of the deposited data

How the results depend on the processing

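With all 8 arrays 61 probes passed. The count was 110 with 75th percentile scaling, 34 in the value table, 7 on the 6 arrays with lower file numbers, 8 with the replicate block and 16 to 49 with 1 array left out (16 without WT replicate 4). Added after seeing the data, it was 23 with the scan gain set as a block, 0 within the first set (2075 at an unadjusted p below 0.05) and 1 (1430 at an unadjusted p below 0.05), a fall, within the second, fits in which 1 genotype has a single array, assumed to vary like the other genotype, so that few calls could be made, and 17 without Cav3.1 KO replicates 2 and 3. The p53 target list, with 2 calls, gave 3 with an offset of 16 or with a trend and robust eBayes, 1 after blank subtraction, in the value table and with the file number or the gain set as a block, 0 on lower file numbers, with the replicate block, within either gain set or without Cav3.1 KO replicates 2 and 3, and 0 to 2 with 1 array left out. The other 8 genes of the set gave 0 calls throughout. The mean difference of Mdm2, Gadd45a, Ccng1 and Sesn1 was 0.08, 0.06 to 0.10 with 1 array left out, 0.037 within the first gain set, 0.14 within the second and 0.040 without Cav3.1 KO replicates 2 and 3. Signs reversed for Cdkn1c within the first gain set (-0.0080) and without Cav3.1 KO replicates 2 and 3 (-0.074), for Cdkn2c within the second set (-0.15), for Mdm2 within the second set (0.11) and with 1 array left out (-0.095 to 0.031), for Cdkn2d with 1 left out (-0.10 to 0.044), and for Ccng1 in the value table (-0.028), within the second set (-0.035) and with 1 left out (-0.017 to 0.080); the cause was not tested. Cdkn1a, which was not tested, kept its direction throughout. Same-numbered arrays did not deviate together (r of -0.11, -0.08, -0.08 and 0.01), so the replicate block pairs nothing known. Dim probes such as Cdkn1a in WT, Cdkn2a and Plk1 limit what can be seen.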
